A study of Mus musculus with 34 samples.

Results

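The axon guidance genes described here are the semaphorins and their plexin receptors, the ephrins and their Eph receptors, netrins 4 and 5 with the netrin receptors Dcc and Unc5a to Unc5c, and the Slit genes with Robo1 and Robo2. Members were chosen by symbol alone. Each gene was read from the probe with the highest mean signal among its probes that passed the detection filter, where any did. Of 60 such genes with a named probe, 42 were detected (detection p below 0.05) on at least 4 arrays of a cell type, among 11496 genes that passed this filter in all. Of the 42, 32 passed in C17.2 and 38 in primary neural stem cells, and 28 passed in both. Ntn1, Ephb2 and Sema5b were not analysed here, since none of the probes named here carried their symbols.

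Total RNA was hybridised to 34 Illumina bead arrays, 200 ng an array. C17.2 is an immortalised mouse neural stem cell line. NSC are primary neural stem cells taken from the mouse telencephalon at E13.5, a stage when it is making neurons. Cells of each kind carried retroviruses for STAT3C, for CEBPB, for STAT3C together with CEBPB, or a control retrovirus. The sample descriptions name the control retrovirus as pBabe for NSC and leave it unnamed for C17.2. STAT3C is a constitutively active form of the transcription factor STAT3, and CEBPB encodes the transcription factor C/EBP beta. C17.2 had 4 arrays in each of the 4 groups, and NSC had 4 STAT3C, 4 CEBPB, 5 STAT3C+CEBPB and 5 control arrays. For the NSC arrays with both viruses, one label field reads STAT3 where the others read STAT3C, and the 5 arrays were taken as STAT3C+CEBPB. The labels do not say whether replicates were separate cultures, so p-values measure only the spread between these arrays, which may be technical. All cells, the controls included, carried a retrovirus.

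Guidance molecules steer growing axons and migrating cells. Secreted class 3 semaphorins act through plexins paired with neuropilins, while membrane semaphorins bind plexins directly. Ephrins sit on the cell surface and signal on contact with Eph receptor tyrosine kinases, with signals running into both cells. Netrins attract or repel through Dcc and the Unc5 receptors, and Slit proteins repel through Robo receptors. In the embryonic telencephalon these families are also expressed by neural progenitors, where they bear on proliferation and migration.

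Between 33.8% and 35.9% of probes were detected on the C17.2 arrays, and between 36.3% and 41.7% on the NSC arrays. The number of arrays limits the precision. Both cell kinds expressed the stem cell markers Nes, Sox2 and Vim on every array, and NSC also Fabp7 and Slc1a3. Fabp7, Hes5 and Pax6 were detected on no C17.2 array, and Pax6 on no NSC array. Of 8 neuron markers, Map2 was detected on every array of both kinds, and Stmn2, Snap25 and Neurod1 on none. The probe for Stat3 averaged 10.01 ± 0.12 on the log2 scale with STAT3C and 9.59 ± 0.21 with control in C17.2 cells (SD, n = 4 each), and 10.87 ± 0.13 (SD, n = 4) with STAT3C and 10.61 ± 0.47 (SD, n = 5) with control in NSC. The Cebpb probe averaged 10.26 ± 0.33 with CEBPB and 9.89 ± 0.37 with control in C17.2 cells, and 8.26 ± 0.11 with CEBPB and 8.58 ± 0.38 with control in NSC. With both viruses the Stat3 probe averaged 9.25 ± 1.05 in C17.2 cells (SD, n = 4) and 10.71 ± 0.19 in NSC (SD, n = 5). The Cebpb probe averaged 10.59 ± 0.54 and 8.22 ± 0.14 on the same arrays. It is not known here whether the Stat3 and Cebpb probes read the viral transcripts, so they do not check the labels.

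Some arrays stood apart. On replicate 4 of each NSC group, all on slide 6, Xist was not detected (signals of -7.68 to 12.2), whereas the other 14 NSC arrays had Xist signals of 532 to 2050. Slide 6 also held control replicate 5 and STAT3C+CEBPB replicate 5, which had Xist. In C17.2 cells the 4 controls lay alone on slide 1, and in every C17.2 comparison with control the vector and the slide cannot be told apart. Along the first principal component over all genes, which held 50.2% of the C17.2 variance, STAT3C replicates 3 and 4, CEBPB replicates 1, 2 and 4 and STAT3C+CEBPB replicates 2 and 3 had values of 16.6 to 43.0. The other 9 arrays, with all controls among them, had values of -45.4 to -12.3. Where leaving out the arrays that lacked Xist, or 1 array, ended a call below, the value without them is given.

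Of the 60 genes, 18 did not pass the detection filter in either cell kind. These were all 3 Slit genes, Dcc, Unc5a, Plxna4, the ephrins Efna2 and Efna3, the receptors Epha1, Epha6, Epha8, Epha10, Ephb3 and Ephb6, and the semaphorins Sema3d, Sema3g, Sema4c and Sema6c. The Dcc probe was detected on 1 of the 16 C17.2 arrays and 1 of the 18 NSC arrays, and Slit2 on 3 C17.2 arrays and no NSC array, with a highest level of 6.07 on STAT3C replicate 3. Slit3 was detected nowhere, Slit1 on 2 C17.2 arrays and Unc5a on 1 NSC array. Levels here are log2 signals after background correction and quantile normalisation, and levels of different probes are not on a common scale.

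Of the 42 genes, 28 passed the filter in both cell kinds, 4 in C17.2 alone and 10 in NSC alone. Among all 11496 genes these classes held 9059, 639 and 1798. Some members were detected almost wholly in 1 kind, a pattern that was not counted over all genes. Epha5, Robo2, Sema4g and Sema6d were detected on none of the 16 C17.2 arrays and all 18 NSC arrays, and Ephb1 and Sema6a on 1 C17.2 array and all 18 NSC arrays. Sema7a, a membrane-anchored semaphorin known to promote axon growth, was detected on all 16 C17.2 arrays and 1 NSC array. The control arrays of both kinds were then compared in a fit of all 34 arrays, normalised together, so the arrays of the other groups entered the normalisation and the estimate of spread. No slide held both cell kinds, so slide and cell kind cannot be told apart in this comparison.

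Of the 28 genes that passed the filter in both kinds, 14 were higher and 5 lower in C17.2 control than in NSC control (limma, adjusted p below 0.05), which is 67.9%, against 48.4% of the 9059 genes of that class. Over all 11496 genes 49.3% differed, and 30 of the 42 guidance genes did, 16 higher and 14 lower in C17.2. A gene that passed the filter in 1 kind alone could pass through the kind where it was high, so those 14 genes are described but add no support. Of the 4 that passed in C17.2 alone (Sema3b, Sema3c, Sema4d and Sema7a), 2 differed (54.8% of all such genes). Of the 10 that passed in NSC alone, 9 did (52.3%). These 10 were Epha3, Epha5, Ephb1, Ntn5, Plxna3, Robo2, Sema4g, Sema6a, Sema6d and Unc5c.

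Among the ligands, Efna5, a membrane-linked ephrin, showed the largest excess in C17.2. Its C17.2 control arrays read 10.12, 10.02, 9.05 and 10.23, against 4.92, 4.80, 5.36, 6.54 and 6.08 in NSC control. The lowest C17.2 array lay above the highest NSC array, and the difference was 4.32 (SE 0.51, adjusted p = 3.55e-08). Efna1 and Efnb3 were higher in C17.2 too (1.38, SE 0.41, and 0.84, SE 0.18), and no ephrin was lower. The call of Efna1 was lost in 1 of 4 alternatives other than leaving out a single array (adjusted p = 0.0726 by limma). Sema3f, a secreted repellent that acts through neuropilin 2, read 8.08, 8.30, 8.32 and 7.63 in C17.2 control, against 4.79, 4.62, 4.74, 5.02 and 5.24 in NSC control. That is a difference of 3.20 (SE 0.25, adjusted p = 7.35e-12), again with no overlap. Sema3b, which was not well above background on any NSC control array, was at least 4.94-fold higher (7.22 against 4.47 as measured), and Sema7a at least 3.27-fold (6.63 against 4.63). Sema3e (0.86, SE 0.27), Sema4a (1.04, SE 0.17) and Sema4f (at least 2.71-fold) were higher as well. The Sema4f bound is for the probe of this fit, and the fit of NSC alone used another, detected on 6 NSC arrays.

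Other ligands were higher in NSC control. Sema5a, a membrane semaphorin with thrombospondin repeats, read 4.87, 4.80, 5.58 and 4.57 in C17.2 control, against 10.19, 10.39, 10.36, 5.69 and 10.04 in NSC control. All but 1 of the NSC controls were above 10, and the exception was replicate 4, which lacked Xist. The difference was -4.38 (SE 1.01, adjusted p = 0.000682) with all arrays and -5.29 without the 4 arrays that lacked Xist. Sema6d, a transmembrane semaphorin that binds plexin A1 and plexin A4, read 4.58, 4.77, 4.67 and 4.37 in C17.2 control, against 8.30, 8.23, 8.87, 8.98 and 8.58 in NSC control. It was not well above background on any C17.2 control, so the fold is a bound, at least 10.9-fold lower in C17.2. Sema3a, the best-known collapsing cue for growth cones, differed by -2.43 (SE 0.27), Sema6a by -1.90 (SE 0.26) and Ntn4, a netrin of basement membranes, by -2.50 (SE 0.25). Sema4b differed by -0.71 (SE 0.18), Ntn5 by -1.27 (SE 0.31), and Sema4g was at least 1.60-fold lower in C17.2 control.

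Receptors also differed in both directions. Epha7 had levels of 7.72, 7.54, 6.19 and 7.01 in C17.2 control, against 4.47 to 4.69 in NSC control, where it was not well above background. By the probe of this fit it was at least 4.57-fold higher in C17.2. The fit of NSC alone used another Epha7 probe, which was detected on 8 NSC arrays. On that probe the NSC controls averaged 4.668 on slide 4 and 5.567 on slide 6, so the bound is for 1 probe and not for the gene. Unc5b, a repellent netrin receptor, differed by 2.04 (SE 0.20), Epha2 by 1.31 (SE 0.37), Ephb4 by 0.96 (SE 0.22) and Epha4 by 0.56 (SE 0.17). In the other direction, Ephb1 was at least 6.41-fold and Epha5 at least 4.18-fold lower in C17.2 control. Robo1 differed by -3.02 (SE 0.73), with C17.2 controls at 4.57 to 6.05 against 7.20 to 9.84 in NSC controls, and Robo2 was at least 1.41-fold lower. Epha3 (-0.33, SE 0.12) and Unc5c (-0.38, SE 0.16) passed narrowly, near background in both kinds, so these are differences as measured and not bounds. Unc5c lost the call in most fits that left 1 array out (-0.45 to -0.27) and without the 4 arrays that lacked Xist (-0.27, adjusted p = 0.103). Epha3 lost it without C17.2 control replicate 1 (-0.28, adjusted p = 0.0769). Of the 4 alternatives other than leaving out a single array, 2 lost the call of Epha3 (adjusted p up to 0.135 by limma). For Unc5c 3 of those 4 did (adjusted p up to 0.656). Of 8 plexins tested, Plxna2 and Plxna1 were higher in C17.2 (0.80, SE 0.26, and 0.53, SE 0.17) and none was lower. The call of Plxna1 was lost without C17.2 control replicate 2 or 4 (0.35, adjusted p = 0.087, and 0.44, adjusted p = 0.0537). Markers of other cell types also differed between the control arrays. The oligodendrocyte lineage genes Olig1 and Olig2 were detected on no C17.2 array and every NSC array. Their list as a whole was less divided. Of its 7 genes with a probe, 4 passed the filter in C17.2 and 5 in NSC, where Mag was detected on no array. Col1a1, a fibroblast gene, was detected on every C17.2 array and no NSC array. Of 6 pericyte and fibroblast markers, 3 passed in C17.2 and 0 in NSC. The part of such markers in these differences was not tested.

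**Figure D1:**
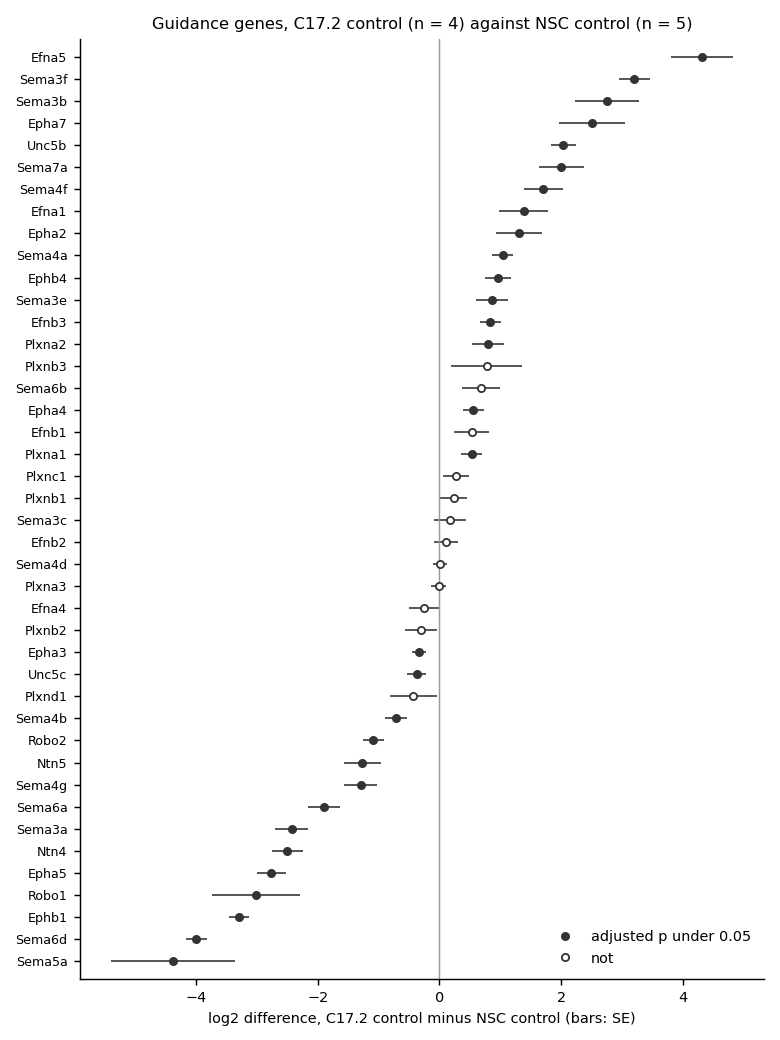
Differences between C17.2 control and NSC control arrays for the 42 guidance genes that passed the detection filter, on the log2 scale, with standard errors. Filled points passed at an adjusted p below 0.05. Efna5 (4.32) and Sema3f (3.20) lie at the C17.2 end, and Sema5a (-4.38) at the NSC end, beside Sema6d, which is plotted as measured although only a bound holds for it (at least 10.9-fold lower in C17.2 control).

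In C17.2 cells, Sema4b was the guidance gene called with both viruses. It encodes a transmembrane class 4 semaphorin and spans bases 80186870 to 80226646 of chromosome 7 in GRCm38.p6. Its level was 9.13, 9.38, 9.41 and 9.09 with STAT3C, 9.54, 9.46, 8.998 and 9.28 with CEBPB, and 8.97, 9.80, 9.77 and 9.77 with STAT3C+CEBPB, against 8.43, 8.79, 8.62 and 8.52 in control. Every array of the 3 transduced groups lay above every control. The gene rose 1.98-fold with both viruses (0.99, SE 0.19, adjusted p = 0.0335 by limma over all 9698 genes), the only call among 32 guidance genes in a comparison that called 0.577% of all genes. With CEBPB alone the difference was 0.73 (SE 0.19, adjusted p = 0.057) and with STAT3C alone 0.66 (SE 0.19, adjusted p = 0.234). The step from 1 virus to both was not called (0.33 over STAT3C and 0.26 over CEBPB, SE 0.19 each). The call was lost, at adjusted p of 0.0571 to 0.13, without control replicate 1, 2 or 4, STAT3C replicate 4 or STAT3C+CEBPB replicate 2, 3 or 4, while the difference stayed between 0.91 and 1.19 with any array left out.

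Sema3e encodes a secreted semaphorin that binds plexin D1. Its level was 6.38, 5.85, 6.88 and 6.66 with STAT3C, 7.23, 6.73, 5.998 and 6.60 with CEBPB, and 6.16, 6.37, 6.74 and 6.81 with STAT3C+CEBPB, against 5.82, 5.57, 5.28 and 4.91 in control. Every array of the 3 transduced groups again lay above the highest control. With CEBPB the gene rose 2.37-fold (1.24, SE 0.28, adjusted p = 0.0397). The differences with STAT3C+CEBPB (1.12, adjusted p = 0.0795) and with STAT3C (1.05, adjusted p = 0.222) were not called. Sema3e was 1 of 2 calls with CEBPB, a comparison that called 1.62% of all genes. Its call was lost at adjusted p of 0.0518 to 0.132, with differences of 1.05 to 1.39, without any 1 of the 4 controls, STAT3C replicate 4 or CEBPB replicate 1, 2 or 4. Plxnd1, the receptor of Sema3e, was not called (with CEBPB -1.47, SE 0.50, adjusted p = 0.108, and with STAT3C+CEBPB -1.70, SE 0.50, adjusted p = 0.123).

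The other call with CEBPB was Efnb1, a transmembrane ephrin encoded on chromosome X (99136061 to 99149022, GRCm38.p6). It read 8.03, 8.56, 7.53 and 7.22 with STAT3C, 6.03, 5.80, 6.30 and 6.48 with CEBPB, and 6.90, 5.41, 6.35 and 7.45 with STAT3C+CEBPB, against 7.81, 8.52, 7.75 and 7.40 in control. The 4 CEBPB arrays lay below all controls, and the STAT3C arrays overlapped with the controls. Efnb1 fell by 1.72 (SE 0.38, adjusted p = 0.0401, log2) with CEBPB, and its difference from control was -1.34 (SE 0.38, adjusted p = 0.113) with both viruses and -0.04 (SE 0.38) with STAT3C. It lost the call without any 1 of the controls or without CEBPB replicate 1, 2 or 4 (-1.87 to -1.50, adjusted p of 0.0512 to 0.125). On the values normalised by the authors, whose scale is smaller, the difference was -0.65 (adjusted p = 0.0577). The mean centred level of chromosome 10 genes lay between -0.176 and 0.351 on the transduced C17.2 arrays other than controls, and between -0.209 and -0.103 on the controls. A fit with that mean as a covariate gave -0.82 (adjusted p = 0.613) for Efnb1, 0.85 (adjusted p = 0.564) for Sema3e with CEBPB and 0.80 (adjusted p = 0.22) for Sema4b with both viruses, so none of the 3 calls held there. Summed over 6 pericyte and fibroblast markers, of which Rgs5 and Lum were detected on no array and Col1a1 on all, log2 levels were 34.1 to 35.7 with CEBPB and 31.5 to 37.4 with both viruses, against 31.8 to 33.9 in control, and their part was not tested. In bulk RNA, fewer cells with a transcript and less of it per cell cannot be told apart.

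With STAT3C alone no guidance gene was called, in a comparison that called 0.0103% of all genes, and 8 of the 32 (25%) had an unadjusted p below 0.05, against 12.8% of all genes. With CEBPB 17 of 32 (53.1%) had such a p, against 23% of all genes, and with both viruses 10 (31.2%), against 17.8%. With STAT3C 15.6% of the guidance genes had all arrays above or all below control, against 8.49% of all genes, with CEBPB 25% against 14.5%, and with both viruses 12.5% against 8.57%. The members apart numbered 5, 8 and 4. Sema3c, which passed the filter only through transduced arrays, is among the 5 and the 8.

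Among the secreted semaphorins, Sema3f read 8.83, 9.51, 9.49 and 9.10 with STAT3C, against 7.98, 8.21, 8.24 and 7.51 in control, with no overlap (1.24, SE 0.37, adjusted p = 0.243). Sema3c, a semaphorin known from cardiac outflow and cortical axons, was not well above background on any control, where it read 4.33 to 4.69. It read 4.91, 5.46, 6.41 and 5.94 with STAT3C (1.15, SE 0.35, adjusted p = 0.243) and 6.12, 4.75, 5.44 and 5.91 with CEBPB (1.02, SE 0.35, adjusted p = 0.106). All 8 of these arrays lay above the controls, at least 1.55-fold with STAT3C and 1.43-fold with CEBPB. The probe was detected on 7 C17.2 arrays, none of them a control. Sema3c thus passed the filter only through transduced arrays, where it was high, and its place above the controls adds no support. Sema4f, a membrane semaphorin, read 4.68, 4.80, 4.58 and 4.59 with CEBPB, against 6.18, 6.75, 5.47 and 6.33 in control (-1.52, SE 0.45, adjusted p = 0.0789). It was not well above background on any CEBPB array, and the arrays of the groups were apart, at least 2.18-fold.

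Of the receptors, Unc5b read 7.91, 8.20, 8.43 and 7.50 with CEBPB, against 7.21, 6.81, 7.43 and 7.02 in control (0.90, SE 0.24, adjusted p = 0.0595). The lowest CEBPB array was just above the highest control. Epha7 with STAT3C (-1.82, SE 0.76, adjusted p = 0.347) and Robo1 with both viruses (2.37, SE 0.89, adjusted p = 0.197) had larger differences and larger errors. The ephrin Efnb3 read 5.37, 5.33, 5.30 and 5.17 with both viruses, against 5.65, 5.51, 5.37 and 5.74 in control (-0.27, SE 0.22, adjusted p = 0.52), so its arrays were apart by a small step. Ephb4 averaged 9.22 and Plxnb2 8.82 over all C17.2 arrays, and neither was called with any virus. Ntn4 averaged 5.46 ± 0.32 with CEBPB and 5.03 ± 0.16 in control (SD, n = 4 each), and was not called (0.43, SE 0.17, adjusted p = 0.156).

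No guidance gene was called between CEBPB and STAT3C (0.227% of all genes), between both viruses and STAT3C (0.186%) or between both viruses and CEBPB (0%), nor for the departure of both viruses from the sum of the single ones (0%). In these 4 comparisons 3, 3, 3 and 8 of the 32 genes (9.38%, 9.38%, 9.38% and 25%) had an unadjusted p below 0.05, against 9.19%, 9.83%, 4% and 10.8% of all genes.

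**Figure D2:**
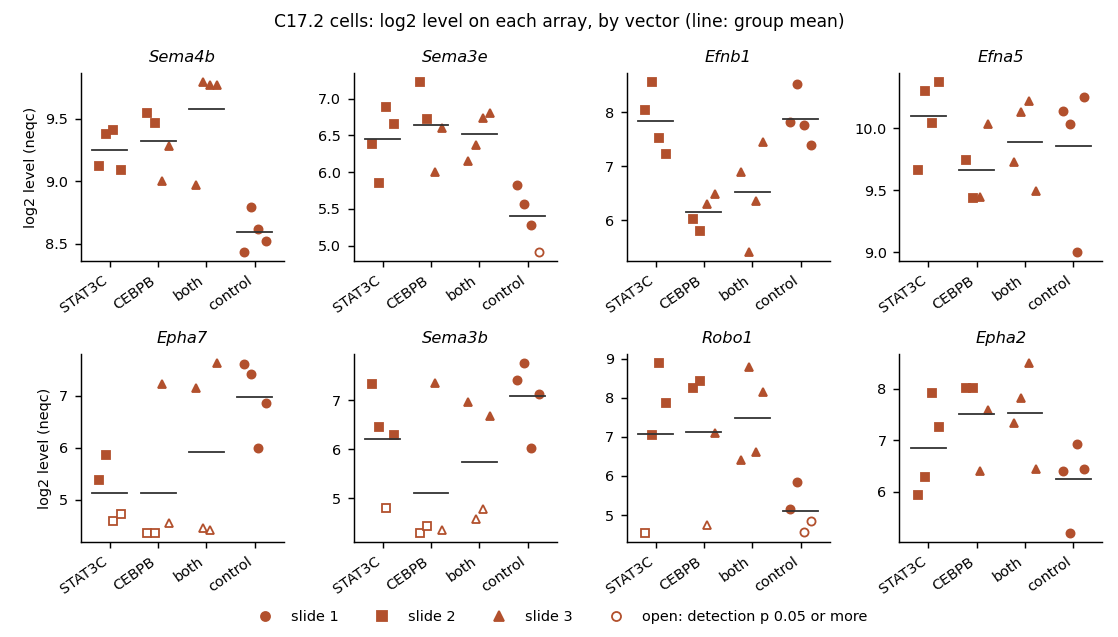
Log2 levels of 8 guidance genes on each of the 16 C17.2 arrays, by vector, with the group mean as a line, the slide as marker shape and open markers where the probe was not detected. Sema4b and Sema3e arrays of the 3 transduced groups all lie above control, and Epha7 and Robo1 split within groups.

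Several guidance genes were spread widely within a C17.2 group. Epha7, an ephrin-A receptor, read 5.38, 5.85, 4.60 and 4.73 with STAT3C, 4.38, 4.36, 7.23 and 4.56 with CEBPB, and 7.15, 4.46, 4.42 and 7.63 with STAT3C+CEBPB, against 7.60, 7.41, 6.001 and 6.85 in control. CEBPB replicate 3 and STAT3C+CEBPB replicates 1 and 4 read 7.15 or more, while the probe was not detected on the rest of their groups. The other 3 Epha7 probes placed the same 3 arrays above the rest of their groups. Sema3b, a secreted semaphorin, was high on the same 3 arrays, with 7.32, 6.46, 4.80 and 6.29 with STAT3C, 4.29, 4.44, 7.35 and 4.35 with CEBPB, and 6.96, 4.58, 4.78 and 6.68 with STAT3C+CEBPB, against 6.03 to 7.76 in control.

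Robo1 ran largely the other way. It read 4.53, 7.05, 8.89 and 7.86 with STAT3C, 8.25, 8.42, 4.75 and 7.09 with CEBPB, and 6.40, 8.78, 6.61 and 8.14 with STAT3C+CEBPB, against 5.15, 5.86, 4.57 and 4.86 in control. STAT3C replicate 1 and CEBPB replicate 3 were no higher than the controls. Efna1 and its receptor Epha2, named after their values were seen, were high on the arrays with positive first-component values (7.18 to 8.52 for Efna1 and 7.25 to 8.51 for Epha2), against 5.14 to 7.12 and 5.19 to 7.33 on the other 9. The part of this component in the vector differences was not tested. Without CEBPB replicate 3, 8 guidance genes passed against control with CEBPB, namely Efna1, Efnb1, Epha7, Plxnd1, Robo1, Sema3b, Sema3e and Sema4b, in a fit that called 9.47% of all genes. Without STAT3C+CEBPB replicate 1, both viruses called Sema3a, Sema3e and Sema4b, and 4.45% of all genes.

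In NSC the pair of viruses was the combination with calls. Against control, 1 of 38 guidance genes rose and 1 fell with STAT3C+CEBPB, a share of 5.26%, where 2.84% of all 10857 genes were called. With STAT3C alone 0 of 38 were called (0% of all genes) and with CEBPB alone 0 (0.0276%), and 3 and 9 of the 38 (7.89% and 23.7%) had an unadjusted p below 0.05, against 5.14% and 8.51% of all genes. All NSC fits held slide as a fixed term.

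The gene that fell was Ntn5, which encodes a small relative of the laminin-like netrins. It spans bases 45684022 to 45694556 of chromosome 7 in GRCm38.p6, a span that overlaps Sec1, and where its probe sits is not given here. The NSC levels were 5.94, 6.01, 5.70 and 5.63 with STAT3C, 6.65, 6.78, 6.65 and 4.71 with CEBPB, and 5.15, 5.20, 5.48, 4.48 and 5.33 with STAT3C+CEBPB, against 6.11, 6.02, 6.25, 6.22 and 7.30 in control. All 5 arrays with both viruses lay below all 5 controls, as did the 4 with STAT3C, whose difference was not called (-0.52, SE 0.28, adjusted p = 0.854). The fitted difference was -2.02 (SE 0.37, adjusted p = 0.00665), more than the plain difference of group means (5.13 ± 0.38 with both viruses and 6.38 ± 0.52 in control, SD, n = 5 each). Without the slide term it was -1.25 (adjusted p = 0.0679), and without the 4 arrays that lacked Xist -1.97 (adjusted p = 0.000639). On slide 6, the only slide with both groups, the 2 arrays with both viruses averaged 4.91 and the 2 controls 6.76.

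The CEBPB arrays of Ntn5 divided by slide, with 6.65 to 6.78 on slide 5 and 4.71 on slide 6. On slide 5 the 3 arrays with both viruses averaged 5.27 and the 3 with CEBPB alone 6.69. On slide 6 the values were 4.91 for 2 arrays with both viruses and 4.71 for 1 CEBPB array. The difference of both viruses from CEBPB was -0.92 (SE 0.28, adjusted p = 0.0631) over all arrays and -1.42 (adjusted p = 1.04e-05) without the arrays that lacked Xist.

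The gene that rose was Efna5, at bases 62602957 to 62881317 of chromosome 17, the ephrin that was so much higher in C17.2. In NSC it read 5.21, 5.04, 5.35 and 6.84 with STAT3C, 4.58, 4.81, 4.90 and 7.61 with CEBPB, and 5.70, 5.15, 6.29, 7.68 and 7.77 with STAT3C+CEBPB, against 4.96, 4.83, 5.47, 6.68 and 6.23 in control. The groups overlapped. Every array on slide 6 read 6.23 or more whatever its vector, and 1 array on the other slides did. With slide in the fit the difference between both viruses and control was 1.40 (SE 0.28, adjusted p = 0.0113). Without the slide term it was 0.88 (adjusted p = 0.598), with slide as a random block 1.20 (adjusted p = 0.109) and without the 4 arrays that lacked Xist 1.54 (adjusted p = 0.0609). On slide 6 alone the averages were 7.73 with both viruses and 6.45 in control, over 2 arrays each. In C17.2 cells Efna5 stayed between 9.002 and 10.37 in all 4 groups and was called in no comparison.

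The step from CEBPB to both viruses called 4 of 38 guidance genes, 10.5%, against 6.47% of all genes. Efnb2, the transmembrane ligand of Ephb4, read 5.24, 5.35, 5.36, 5.27 and 5.19 with both viruses, against 4.69, 4.75, 4.62 and 4.82 with CEBPB. It was detected on 8 NSC arrays, namely all 5 with both viruses, none of the 4 with CEBPB and the rest with STAT3C. Without the arrays with both viruses it would not have passed the filter of at least 4 arrays. Efnb2 thus passed through the group where it was high, and its call adds no support to the count of 4. It rose at least 1.22-fold (0.56 fitted, SE 0.13, adjusted p = 0.0181). With STAT3C it read 5.05, 5.03, 5.44 and 4.58, and in control 4.61 to 4.91 with no array detected. It was not called against control (0.61, SE 0.17, adjusted p = 0.0619). The call against CEBPB was lost without CEBPB replicate 1, 2 or 3 or STAT3C+CEBPB replicate 2 (adjusted p of 0.053 to 0.0615).

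The class 6 semaphorins Sema6a and Sema6d rose in the same step. Sema6a, a transmembrane semaphorin that also acts as a receptor, read 7.05, 6.89, 7.22, 7.92 and 8.08 with both viruses, against 6.49, 6.47, 6.64 and 7.42 with CEBPB. On each slide the arrays with both viruses averaged above CEBPB, by 0.52 on slide 5 and 0.58 on slide 6, and the fitted difference was 0.54 (SE 0.14, adjusted p = 0.0333). Its other 3 kept probes gave 0.16 to 0.36, none called, and the mean of the 4 probes was not called (0.35, adjusted p = 0.0505). Sema6d read 8.82, 8.69, 9.30, 9.03 and 8.93 with both viruses, against 8.13, 8.18, 8.30 and 8.72 with CEBPB (0.59, SE 0.16, adjusted p = 0.034). Its 2 other kept probes gave 0.57 and 0.34, not called.

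Sema4b fell in this step. It read 9.33, 9.29, 8.95, 8.93 and 8.75 with both viruses, against 9.63, 9.72, 9.86 and 9.23 with CEBPB, and CEBPB replicate 4 overlapped the other group (-0.50, SE 0.14, adjusted p = 0.0473). It lost the call in 14 of 18 fits that left an array out (-0.54 to -0.41, adjusted p up to 0.134). The exceptions were the fits without control replicate 2, 3 or 5 or without STAT3C+CEBPB replicate 4. Without the 4 arrays that lacked Xist it was -0.54 (adjusted p = 0.0562). Sema6a lost its call without any 1 of the 4 CEBPB arrays or STAT3C+CEBPB replicate 1, 2 or 3 (0.49 to 0.60, adjusted p up to 0.0982), and Sema6d without CEBPB replicate 1, 2 or 3 or the same 3 arrays (0.45 to 0.64, adjusted p up to 0.106). With no slide term none of the 4 was called (adjusted p of 0.057 to 0.36). Over 7 oligodendrocyte lineage markers with a probe, of which Mag was detected on no array and Olig1, Olig2 and Cspg4 on all, summed log2 levels were 46.2 to 47.0 with both viruses, against 48.5 to 49.0 with CEBPB. Their part in this step was not tested.

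Between both viruses and STAT3C no guidance gene was called in NSC (0.341% of all genes), nor between CEBPB and STAT3C (0.00921%) nor for the departure from additivity (0.0368%), with 10, 6 and 6 of the 38 genes (26.3%, 15.8% and 15.8%) at an unadjusted p below 0.05, against 11.5%, 5.36% and 14.2% of all genes. Without control replicate 5, or without CEBPB replicate 4, the step from CEBPB to both viruses called 7 genes in place of 4, in fits that called 8.95% and 9.22% of all genes. Without any 1 of CEBPB replicates 1 to 3 or STAT3C+CEBPB replicate 2 it called 0 (2.1% to 2.9% of all genes), and without STAT3C+CEBPB replicate 1 or 3 Efnb2 alone (2.86% and 3.8%).

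**Figure D3:**
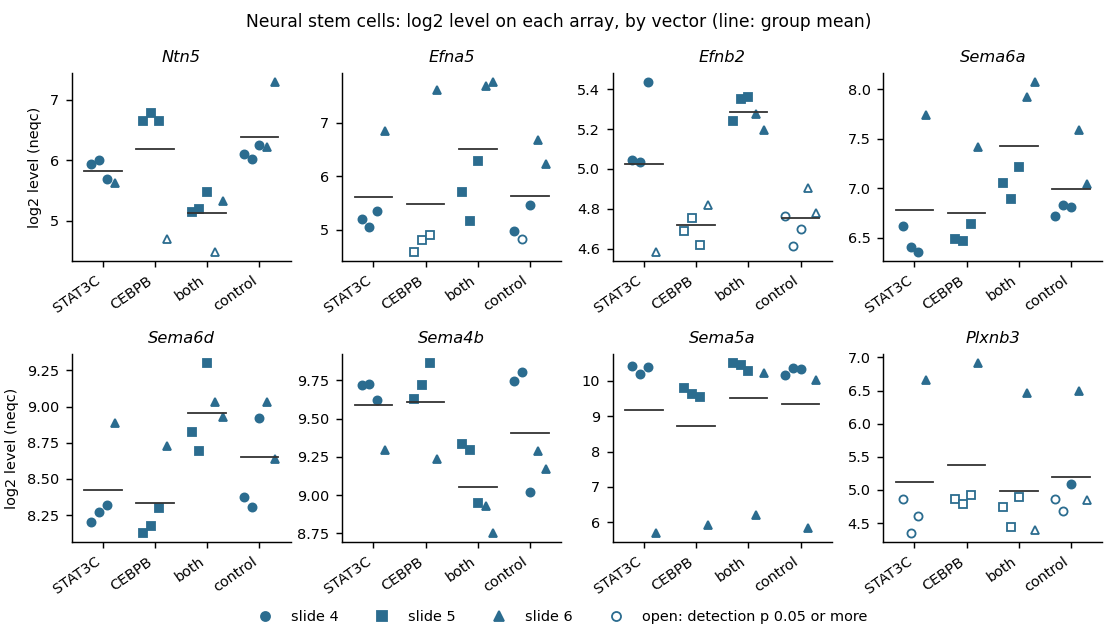
Log2 levels of 8 guidance genes on each of the 18 NSC arrays, by vector, with the group mean as a line, the slide as marker shape and open markers where the probe was not detected. All 5 Ntn5 arrays with both viruses lie below control, Efna5 is high on every slide 6 array, and Sema5a and Plxnb3 each set 1 slide 6 array per group apart.

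In each NSC group 1 array stood apart for several guidance genes. Sema5a read between 9.53 and 10.51 on the 14 arrays with Xist, and 5.69 with STAT3C, 5.93 with CEBPB, 6.21 with STAT3C+CEBPB and 5.83 in control on the 4 without. Its second kept probe read 8.88 to 9.71 on the 14 arrays and 4.45 to 5.48 on the 4. Plxnb3, a plexin for which Sema5a is a known ligand, had the opposite pattern, with 6.66 with STAT3C, 6.92 with CEBPB, 6.46 with STAT3C+CEBPB and 6.49 in control on those 4 arrays and 4.35 to 5.08 on the rest. Robo1 was highest on them too, at 9.51 to 9.91, against 7.32 to 8.97 elsewhere. Plxnb3 was named after its values were seen, and these arrays were set apart by Xist and not by vector, so no test was made between them and the rest.

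Fits without the 4 arrays called more genes over the whole array. From CEBPB to both viruses 10 of 38 guidance genes were then called, where 4 were called with all arrays, and 17.7% of all genes, where 6.47% were called with all arrays. Of the 4, all but Sema4b were among the 10. Those 10 included Sema5a (0.75, SE 0.11, adjusted p = 0.00071), Ntn4 (0.77, SE 0.17, adjusted p = 0.00734), Sema3e (0.88, SE 0.20, adjusted p = 0.00915), Ephb1 (0.47, SE 0.13, adjusted p = 0.0226) and Plxna2 (0.48, SE 0.13, adjusted p = 0.0205). No CEBPB array was then left on slide 6, so each of these is the slide 5 difference of 3 arrays against 3. On slide 6, with 2 arrays against 1, the step was -0.25 for Ntn4 and -0.06 for Sema3e. There it was 2.28 for Sema5a, 0.54 for Ephb1 and 0.09 for Plxna2. Against control, Unc5c, a netrin receptor, was called with both viruses (1.25, SE 0.21, adjusted p = 0.00687) and with CEBPB (1.18, SE 0.24, adjusted p = 0.0428), and Sema6a with both viruses (1.04, SE 0.20, adjusted p = 0.0127). These comparisons called 3.87% of all genes with both viruses and 0.995% with CEBPB. The departure from additivity then called 6 genes, namely Ntn4 (1.04), Ntn5 (-1.17), Sema3f (-0.78), Sema5a (0.71), Sema6a (0.85) and Sema6d (1.005), and 6.42% of all genes. As with all arrays, slide 5 held no control and slide 4 neither CEBPB nor both viruses. In this smaller set the link between them rests on replicate 5 of control and of STAT3C+CEBPB on slide 6.

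Whether the viruses moved these genes alike in both cell kinds was asked directly in a fit of all 34 arrays. Sema4b differed most clearly, with a change in C17.2 cells that exceeded the change in NSC by 1.35 (SE 0.27, adjusted p = 0.00566). Within its own fit it was 0.99 in C17.2 cells and -0.40 in NSC (SE 0.18, adjusted p = 0.275). Ntn5 differed by 1.91 (SE 0.44, adjusted p = 0.0237), and it did not pass the filter in C17.2 cells, where it was detected on 3 of 16 arrays. Its C17.2 controls read 4.75 to 5.32 in this fit, near background, so a fall there like that in NSC could not be seen. Sema4b and Ntn5 were 2 of 42 genes, 4.76%, against 1.3% of all genes. For Sema4b the difference was 1.37 (adjusted p = 0.121) without the 4 arrays that lacked Xist. For Ntn5 the call was lost without NSC CEBPB replicate 4 (1.56, adjusted p = 0.0678) or NSC control replicate 5 (1.44, adjusted p = 0.103). The Ntn5 call was also lost with no slide term (adjusted p = 0.164 by limma).

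For STAT3C the change differed between the cell kinds for none of the 42 (0.0087% of all genes called) and for CEBPB for none (0.4%), with 8 and 15 genes (19% and 35.7%) at an unadjusted p below 0.05, against 11% and 15.5% of all genes. The nearest with CEBPB were Ntn4 (1.23, SE 0.33, adjusted p = 0.0928) and Sema3e (1.49, SE 0.41, adjusted p = 0.102). The C17.2 side of each such difference carries the slide of its controls.

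**Figure D4:**
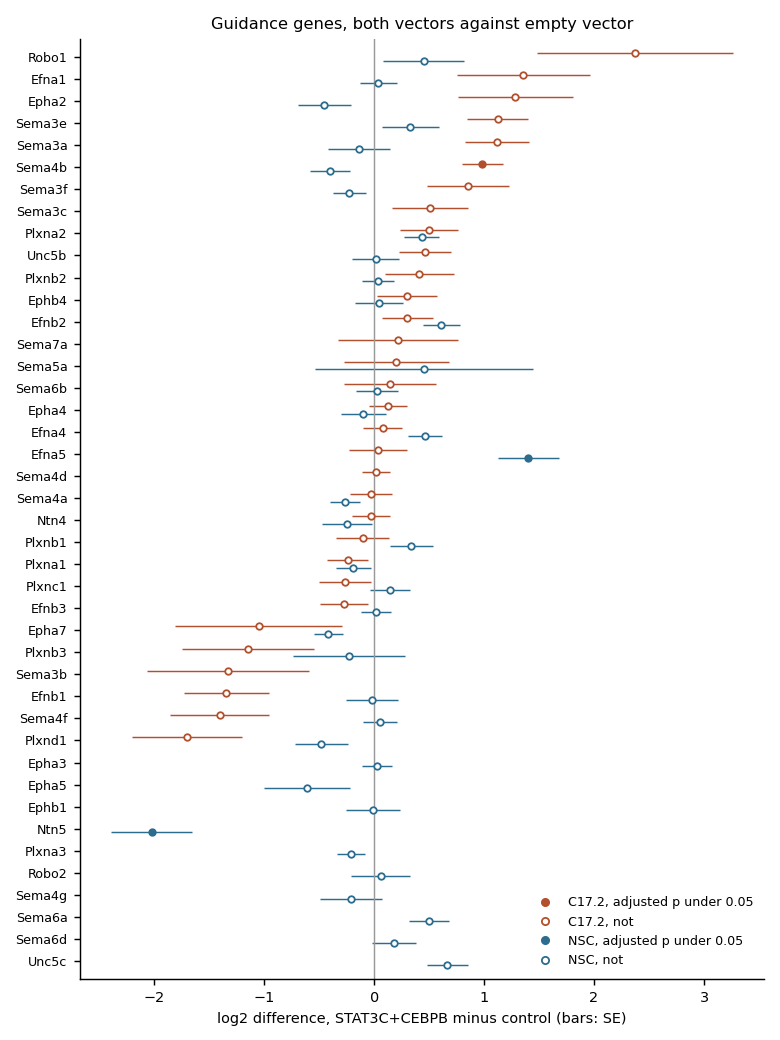
Log2 differences of STAT3C+CEBPB from control for each guidance gene, with standard errors, in C17.2 cells and in NSC, and filled points where the adjusted p was below 0.05. Sema4b passes in C17.2 cells alone, and Efna5 and Ntn5 pass in NSC alone. The difference between cell kinds was called for Sema4b and Ntn5, and for Ntn5 not without the slide term. Ntn5 is not drawn for C17.2 cells, where it did not pass the filter and a fall could not be seen.

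Promoter sequence was set beside the called genes, as RefSeq gives it for GRCm38.p6, from 250 bases before to 50 after a gene's start. The Sema3e window (chr5:14025026-14025325, plus strand) and the second Sema4b window (chr7:80198338-80198637, plus strand) are shown because each holds a motif of a factor the viruses carried, and the Ntn5 window (chr7:45683772-45684071, plus strand) because it holds neither. Capitals mark the match.
Sema3e: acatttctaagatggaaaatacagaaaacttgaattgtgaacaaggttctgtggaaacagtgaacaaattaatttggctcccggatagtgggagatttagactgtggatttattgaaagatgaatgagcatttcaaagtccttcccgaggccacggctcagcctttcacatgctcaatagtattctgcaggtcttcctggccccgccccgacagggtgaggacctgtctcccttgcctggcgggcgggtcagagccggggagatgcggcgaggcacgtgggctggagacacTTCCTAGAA
Sema4b: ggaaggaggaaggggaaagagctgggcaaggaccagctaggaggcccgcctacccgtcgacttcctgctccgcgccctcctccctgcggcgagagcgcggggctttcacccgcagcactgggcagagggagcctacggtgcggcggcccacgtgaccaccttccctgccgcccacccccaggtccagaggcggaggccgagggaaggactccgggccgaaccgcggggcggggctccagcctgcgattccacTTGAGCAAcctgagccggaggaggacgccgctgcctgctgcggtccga
Ntn5: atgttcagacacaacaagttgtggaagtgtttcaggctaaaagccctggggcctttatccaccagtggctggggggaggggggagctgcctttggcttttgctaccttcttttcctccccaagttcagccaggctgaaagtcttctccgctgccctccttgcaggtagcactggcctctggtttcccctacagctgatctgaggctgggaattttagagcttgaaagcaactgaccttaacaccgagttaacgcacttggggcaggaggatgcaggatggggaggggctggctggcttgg

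The letters searched on both strands were TTCNNNGAA, the spacing of STAT sites, and TTNNGCAA, one end of the C/EBP palindrome. The Sema3e match begins 41 bases after the start and the Sema4b match 2 bases after it. Of the 42 genes 37 had a window, 50 windows in all, and the STAT letters stood in 2 of them, 4.0%, against 8.3% of all 32851 windows of the same length. The C/EBP letters stood in 4, 8.0%, against 10.8%. Besides the 2 genes shown, the matches were in Epha3 for STAT and in Plxna3, Robo2 and Sema4a for C/EBP. These are matches of letters and say nothing of binding.

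Beyond the ligands and receptors themselves, the co-receptors and other cues (28 genes, such as the neuropilins and Draxin) and the effectors inside the cell (56 genes) were counted. In C17.2 cells 1 of 16 co-receptors and cues tested was called against control with CEBPB, 6.25%, against 1.62% of all genes. This was Itga1, an integrin alpha subunit, which averaged 4.60 ± 0.07 with CEBPB and 6.67 ± 0.98 in control (SD, n = 4 each). No CEBPB array was well above background, and Itga1 was at least 3.06-fold lower (adjusted p = 0.0431). Its call was lost after the floor of 16 (adjusted p = 0.0547), on the authors' values (0.057), with no detection filter (0.0726) and with the chromosome 10 covariate (0.55). It was also lost without control replicate 1, 2 or 4, STAT3C replicate 4 or CEBPB replicate 1, 2 or 4 (adjusted p up to 0.126). None of 38 effectors was called with any virus in C17.2 cells, and with CEBPB 9 (23.7%) had an unadjusted p below 0.05, against 23% of all genes. The list medians with CEBPB were -0.24 and -0.08, against 0.01 over all genes.

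In NSC the called genes came with both viruses. Of 43 effectors, 2 rose and 2 fell against control, 9.3%, against 2.84% of all genes, and the median was 0.12 against 0.01 over all genes. These calls rested on the slide term to different degrees, and none of the 4 held without it. Crmp1, of the collapsin response mediator family that carries semaphorin signals to the cytoskeleton, averaged 6.28 with both viruses and 5.68 in control. It rose by 1.18 in the fit (SE 0.20, adjusted p = 0.00426), and the difference was 0.59 without the slide term (adjusted p = 0.187) and 0.71 without the arrays that lacked Xist (adjusted p = 0.183). Dpysl5, of the same family, averaged 5.74 with both viruses and 5.39 in control, and rose by 0.91 (SE 0.17, adjusted p = 0.00904). It lost the call with no slide term (0.35, adjusted p = 0.73), with slide as a random block (0.69, adjusted p = 0.115) and without the arrays that lacked Xist (0.48, adjusted p = 0.234).

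Fyn, a Src-family kinase downstream of several guidance receptors, averaged 7.51 with both viruses and 8.34 in control (-1.07, SE 0.22, adjusted p = 0.0149). Without the slide term its difference was -0.83 (adjusted p = 0.0773), and without the arrays that lacked Xist -1.39 (adjusted p = 0.0285). Rras, a small GTPase that plexins inactivate, averaged 7.76 with both viruses and 8.15 in control, with a fitted difference of -1.06 (SE 0.16, adjusted p = 0.00176). It was -0.39 without the slide term (adjusted p = 0.742), -0.80 with slide as a random block (adjusted p = 0.0907) and -0.89 without the arrays that lacked Xist (adjusted p = 0.0531). On slide 6, with 2 arrays of each group, both viruses minus control was 0.99 for Crmp1, 0.73 for Dpysl5, -0.93 for Fyn and -1.06 for Rras. Against STAT3C, Rras was called with a fitted -0.86 (SE 0.17, adjusted p = 0.0418), but its plain means were 7.76 with both viruses and 7.71 with STAT3C, so that sign rests on the slide term. Without it the difference was 0.05 (adjusted p = 0.992), with slide as a random block -0.55 (adjusted p = 0.51) and without the arrays that lacked Xist -0.79 (adjusted p = 0.198). The call held with 1 array left out only without control replicate 3 or 5 or STAT3C+CEBPB replicate 3, 4 or 5.

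Of 21 co-receptors and cues, 1 was called with both viruses against control, 4.76%. Draxin, a secreted repellent, averaged 4.74 with both viruses and 5.70 in control (-1.45, SE 0.36, adjusted p = 0.0428), and was detected on 1 of the 5 arrays with both viruses. The call held without the arrays that lacked Xist (-1.25, adjusted p = 0.0141). It was lost with no slide term (-0.96, adjusted p = 0.352), with slide as a random block (-1.26, adjusted p = 0.0799), after the floor of 16 (adjusted p = 0.101), on the authors' values (0.0803), with no detection filter (0.0676) and for the mean of its probes (0.0553). With 1 array left out it held only without control replicate 3 or 5, CEBPB replicate 4 or STAT3C+CEBPB replicate 4.

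Against CEBPB, both viruses gave 2 calls of 43 effectors, 4.65%, and 1 of 21 co-receptors and cues, 4.76%, against 6.47% of all genes. Crmp1 averaged 6.28 with both viruses and 5.39 with CEBPB (0.79, SE 0.16, adjusted p = 0.00822), and of the settings tried only the fit with no slide term lost this call (0.89, adjusted p = 0.0718). Rnd3 averaged 6.44 with both viruses and 5.63 with CEBPB (0.79, SE 0.22, adjusted p = 0.0399). On slide 5 it averaged 6.55 with both viruses and 5.41 with CEBPB over 3 arrays each, and on slide 6 it averaged 6.27 on 2 arrays with both viruses and read 6.28 on 1 with CEBPB. It lost the call with no slide term (adjusted p = 0.0883), after the floor of 16 (0.0515), with no detection filter (0.0658) and in 11 of 18 fits without 1 array, the exceptions being control replicates 3, 4 and 5, STAT3C replicates 2 and 4, CEBPB replicate 4 and STAT3C+CEBPB replicate 5. Draxin averaged 4.74 with both viruses and 5.72 with CEBPB (-1.10, SE 0.28, adjusted p = 0.0286). Its call was lost with no slide term (-0.98, adjusted p = 0.402), after the floor of 16 (0.133), on the authors' values (0.113), with no detection filter (0.0525), and without any 1 of the CEBPB arrays or STAT3C+CEBPB replicate 1, 2 or 3.

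Between the cell kinds, the change of Rras in C17.2 cells exceeded that in NSC by 1.99 with both viruses (SE 0.34, adjusted p = 0.0024) and by 1.85 with CEBPB (SE 0.36, adjusted p = 0.0188), and that of Dpysl5 was below it with both viruses (-1.01, SE 0.19, adjusted p = 0.00414). None of the 3 held without the slide term (1.29, 1.23 and -0.47, adjusted p of 0.205 to 0.589) or without the arrays that lacked Xist (1.81, 1.57 and -0.61, adjusted p of 0.1 to 0.369). The call of Rras with CEBPB was also lost without NSC control replicate 4 or NSC CEBPB replicate 4 (adjusted p up to 0.119).

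Between the control arrays 22 of 43 effectors (51.2%) and 13 of 21 co-receptors and cues (61.9%) were called, against 49.3% of all genes. The extremes among effectors were Cfl1 (3.81, SE 1.07) and Farp2 (2.14, SE 0.34) higher in C17.2 control, and Vav3 (-4.92, SE 0.30) and Fyn (-2.86, SE 0.32) lower. The Cfl1 probe was detected on 1 of the 5 NSC controls, and its levels there had an SD of 2.06. Among co-receptors and cues, Itga1 (1.66, SE 0.36) and the neuropilin Nrp2 (1.03, SE 0.17) were higher in C17.2 control. The cell adhesion molecules Nrcam (-3.35, SE 0.31) and Cntn1 (at least 6.55-fold, with no C17.2 control well above background) were lower.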

How the data were processed

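Each array's deposited file gives the average signal of a probe's beads, an intensity on a linear scale per the file headers, and values below 0 show that background had been subtracted. It also holds a detection p-value for each probe, per the file headers. The authors' deposited series table was taken as log2 and served as an alternative. Its transform and its normalisation between arrays are not given in the sources used here. The submitters' processing notes name BeadStudio and lumi without versions. No 2 of the 34 arrays held identical values.

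Probes were named through the platform annotation and a RefSeq table (GRCm38.p6). Of 45281 probes, 34885 had 1 symbol and were used, 18 had several and 10378 none. Signals were normalised for each cell kind apart, and for both together, with neqc (offset 16) in limma 3.58.1 under R 4.3.3. A gene was tested where its probe with the highest mean had a detection p below 0.05 on at least 4 arrays of a cell kind. lmFit and eBayes fitted the 4 groups of a cell kind together, with slide as a fixed term for NSC. Tests were two-sided, Benjamini-Hochberg adjusted over all genes, and called at 0.05. Where a group had no array well above background, the fold is a bound, with that group set on each array at the lowest signal among probes well above background or the probe's own, whichever was higher. Arrays were assigned to slides by the chip number in the sample titles, and only the numerals used for the slides are given here. The fits were tested on simulated data.

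Genes named with values were those called in any comparison, those with the largest differences without overlap, the members with the highest levels in each cell kind (a choice of names alone), those detected in 1 cell kind alone, and the netrin, Slit and Robo families. The members, lists and this rule were chosen with earlier results of these data known. Alternatives were another background correction, the authors' values, no detection filter, the mean of a gene's probes, other treatments of slide, a chromosome 10 covariate, leaving out the 4 arrays that lack Xist and leaving out each array.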

Additional observations from a re-analysis of the deposited data

Results flagged for a closer look

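Of 148 groups of 4 or 5 arrays checked over 23 guidance genes, 15 held an array whose gap to the others exceeded Dixon's critical value, and chance flags about 1 in 20 groups. In NSC, 8 of the 15 were replicate 4, the arrays that lacked Xist. For Sema5a these read 5.69 with STAT3C, 5.93 with CEBPB, 6.21 with STAT3C+CEBPB and 5.83 in control, with the other arrays of these groups at 9.53 or above. The remaining replicate 4 arrays were Efna5 with CEBPB at 7.61 (others 4.58 to 4.90), Ntn5 with CEBPB at 4.71 (others 6.65 to 6.78), Plxnb2 with STAT3C at 9.21 (others 8.56 to 8.64) and Sema6d with STAT3C at 8.89 (others 8.21 to 8.32).

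The other NSC arrays were Epha5 with STAT3C+CEBPB replicate 3 at 5.97 (others 6.79 to 7.10) and control replicate 3 at 6.24 (others 7.41 to 7.85), Ephb4 in control replicate 3 at 7.21 (others 8.05 to 8.32) and Ntn5 in control replicate 5 at 7.30 (others 6.02 to 6.25). In C17.2 cells they were Epha7 with CEBPB replicate 3 at 7.23 (others 4.36 to 4.56), Sema4b with STAT3C+CEBPB replicate 1 at 8.97 (others 9.77 to 9.80) and Sema5a with STAT3C+CEBPB replicate 2 at 6.43 (others 4.62 to 4.67).

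The change with both viruses differed between C17.2 cells and NSC for Sema4b (1.35) and Ntn5 (1.91), by the test of the difference itself given above. The call of Ntn5 was lost with no slide term. Ntn5 did not pass the filter in C17.2 cells, and a fall there could not be seen so near background.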

How the results depend on the processing

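No paired analysis was possible because the labels give no replicate numbers. Of the 41 called differences, none reversed under any alternative, 107 values under alternatives lost the call and 1324 kept it. These totals mix unlike results, since 30 of the 41 were differences between the control arrays of the cell kinds. Most of the lost values belonged to the other calls, those between vectors. With 1 array left out, Sema3e with CEBPB in C17.2 cells lost its call in 8 of 16 fits. The counts of guidance genes called moved as follows. In C17.2 cells, CEBPB against control gave 0 on the authors' values, 0 with no detection filter and 0 with the chromosome 10 covariate, in place of 2, and 0 to 8 with an array left out. Both viruses against control gave 0 with that covariate, in place of 1, and 0 to 3 with an array left out, and CEBPB against STAT3C 0 to 1. In NSC, both viruses against control gave 1 with no slide term (Efnb2, where Efna5 and Ntn5 had been called) and 2 to 4 with an array left out. Both viruses against STAT3C gave 1 on the authors' values (Efna5) and 0 to 2 with an array left out. Both viruses against CEBPB gave 0 with no slide term and 0 to 7 with an array left out, and the departure from additivity 0 to 1. Without the 4 arrays that lacked Xist, NSC gave 1 call with STAT3C (Sema3f), 1 with CEBPB (Unc5c), 3 for both viruses against STAT3C, 10 against CEBPB and 6 for the departure from additivity, where 0.175%, 0.995%, 0.93%, 17.7% and 6.42% of all genes were called. The difference between cell kinds gave 1 with CEBPB after the floor of 16 and 1 without those 4 arrays (a setting added after the data were seen), both Unc5c. With both viruses it gave 1 with no slide term (Sema4b, with Ntn5 lost). With an array left out it gave 0 to 2 with STAT3C, 0 to 2 with CEBPB and 1 to 3 with both viruses. C17.2 control against NSC control gave 28 to 31 in every setting. On the authors' values Sema3e with CEBPB was 0.36 (adjusted p = 0.0582), Efna5 in NSC with both viruses 0.52 (adjusted p = 0.000653) and Ntn5 -0.47 (adjusted p = 0.0235), on a smaller scale. The alternatives for the co-receptor, cue and effector genes, given with their values above, were added after the data were seen.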
